A study of Rattus norvegicus with 6 samples.

Results

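Notch signalling passes messages between touching cells, and 10 of its genes were followed here in cultured rat nucleus pulposus cells given lactate: the receptors Notch1, Notch2 and Notch3, the ligands Jag1, Jag2 and Dll1, the DNA-binding factor Rbpj, and the targets Hes1, Hey1 and Heyl. They were taken by gene symbol from the deposited table of 17273 genes, and all 10 have a row in it. Nucleus pulposus cells are the cells of the gelatinous centre of the intervertebral disc. The cells were wild type and came from male Sprague Dawley rats, and both groups were kept in DMEM with 10% fetal bovine serum. The lactate group (3 libraries) had received 10 mM lactate for 8 h, and the control group (3 libraries) had received none. The labels give no age and do not say whether lactate was added as acid or salt. Nor do they state that replicates are separate cultures or animals, so p-values here reflect library-to-library spread, possibly of technical origin. The mRNA was sequenced, and the comparison asks which genes differ after lactate.

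In this pathway a ligand of the Jagged or Delta family on a neighbouring cell pulls on a Notch receptor, which is then cut by an ADAM protease and by gamma-secretase. The freed intracellular part moves to the nucleus, binds RBPJ together with a Mastermind protein, and turns RBPJ from a repressor into an activator of target genes such as those of the Hes and Hey families, which are themselves repressors. In nucleus pulposus cells the pathway has been linked to proliferation and to the responses to low oxygen and to inflammatory cytokines.

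RefSeq promoter windows of the rat assembly GRCr8 were read for the core motif of RBPJ, TGGGAA, and for the N-box CACNAG, a motif bound by Hes factors, on both strands of the 250 bases before the annotated start. Of the 10 genes, 9 matched a window by symbol, and Hey1 is only named. Hes1 is shown because it is the classic target and rose with lactate, Notch2 because it was the receptor that fell most, and Dll1 because, like Hes1, it holds more than 1 match to TGGGAA. Capitals mark matches to either motif on either strand, which do not overlap each other in these windows.
Hes1: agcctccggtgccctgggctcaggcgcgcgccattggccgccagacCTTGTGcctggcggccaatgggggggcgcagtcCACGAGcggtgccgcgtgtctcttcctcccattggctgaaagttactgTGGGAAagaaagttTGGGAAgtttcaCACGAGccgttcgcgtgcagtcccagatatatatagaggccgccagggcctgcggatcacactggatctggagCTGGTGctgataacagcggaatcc
Notch2: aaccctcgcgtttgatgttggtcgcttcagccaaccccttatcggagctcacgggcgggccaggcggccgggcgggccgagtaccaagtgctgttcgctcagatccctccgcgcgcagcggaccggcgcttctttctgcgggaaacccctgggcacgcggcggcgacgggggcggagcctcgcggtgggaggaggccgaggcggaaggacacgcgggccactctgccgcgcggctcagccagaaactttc
Dll1: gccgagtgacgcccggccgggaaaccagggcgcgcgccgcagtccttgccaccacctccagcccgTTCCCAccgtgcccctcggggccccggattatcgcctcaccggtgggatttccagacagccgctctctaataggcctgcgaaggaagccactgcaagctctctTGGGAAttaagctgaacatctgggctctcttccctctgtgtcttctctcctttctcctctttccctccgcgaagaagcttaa
The Hes1 window (chr11:84213046-84213295, minus strand) holds 2 matches to TGGGAA, ending 118 and 104 bases before the start, and 4 to CACNAG, ending 199, 166, 92 and 19 bases before it. The mouse Hes1 promoter is known for its RBPJ sites and for N-boxes through which the protein represses its own gene. The Notch2 window (chr2:188299086-188299335, plus strand) holds neither motif, and the Dll1 window (chr1:64993275-64993524, minus strand) holds 2 matches to TGGGAA and 0 to CACNAG. Among all 33469 windows of this length, some of them of the same gene, 22.1% hold TGGGAA at least 1 time, 2.71% at least 2 times, and 37.2% and 8.02% hold CACNAG as often. Both motifs stand at least 2 times each in 71 windows (0.212%). Rbpj has 1 and 2 matches to TGGGAA in its 2 windows, Notch1 4 matches to CACNAG of which 2 overlap each other, Notch3 1, and Jag1, Jag2 and Heyl none of either motif. These are matches of letters, not measured binding sites.

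Lactate libraries held 30291357 to 35512356 counts and control libraries 33584741 to 38989574. The 20 most abundant genes took 29.7 to 33.7% of the counts in lactate libraries and 19.7 to 21.0% in control libraries. TMM factors, which assume that most genes do not change, were 0.702 to 0.806 in lactate and 1.33 to 1.36 in control libraries. The median log2 fold change of the 13747 tested genes was −0.10 under TMM scaling, and −0.96 when only library totals were used. FPKM, counts scaled by transcript length and library size, were made by the authors. A gene is called at an adjusted p under 0.05 in edgeR's quasi-likelihood test with TMM factors, and each fold change is given on the log2 scale, lactate over control, ± its standard error (SE). In this test 66.0% of all genes were called, 31.4% higher and 34.6% lower, and with library totals 12.5% were called higher and 61.8% lower.

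The cells were checked against marker genes, whose calls are given under TMM scaling. Of the nucleus pulposus markers, the proteoglycan gene Acan was abundant, at 2289.6 CPM (counts scaled to a common library size with TMM factors) in lactate and 2393 CPM in control libraries, while the notochord markers Tbxt and Krt19 had 0 counts in lactate and 12 and 9 counts in control libraries. In FPKM Acan was at 248 ± 28.4 in lactate and 471 ± 37.9 in control libraries (SD, n = 3 each), with no overlap. Col2a1, of the same list, was scarce, with 55 counts in lactate and 39 counts in control libraries (0.747 and 0.280 CPM). Sox9 was at 16.1 CPM in lactate and 5.88 CPM in control libraries. Of 10 tested markers of this list 2 were called higher, Cd24 (2.32) and Sox9 (1.45), 2 lower, Pax1 (−0.88) and Foxa2 (−1.97), and 6 were not called. The 12 that could be read, dominated by Acan, summed to 2488 to 2829 CPM in lactate and 2565 to 2877 CPM in control libraries. Endothelial markers, of which 4 of 9 could be read, summed to only 0.699 to 2.30 CPM in lactate and 1.22 to 2.08 CPM in control libraries, with Kdr at 0 counts in control libraries, and neither of the 2 tested was called (Vwf and Esam, edgeR adjusted p = 0.751 and 0.402). Macrophage markers, 4 of 7 read, summed to 4.09 to 5.40 CPM in lactate and 9.61 to 10.7 CPM in control libraries, with Adgre1 at 0 counts in lactate libraries, and of the 2 tested Cd68 was called higher and Cd14 lower. Smooth muscle and pericyte markers, 8 of 9 read, summed to 2276 to 2787 CPM in lactate and 2162 to 2465 CPM in control libraries, with 4 of 8 called higher and 3 lower. Annulus fibrosus and fibroblast markers, 6 of 8 read, summed to 100899 to 145465 CPM in lactate and 29586 to 35442 CPM in control libraries. That sum is mostly Col1a1, and the list went both ways, with 3 of 6 called higher and 2 lower, Mkx (−2.36) and Pdgfra (−1.42). The part of any shift between cell types in the results below was not tested. In bulk RNA, fewer cells of a type and less RNA per cell cannot be told apart.

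Among the receptors, Notch2 fell most, Notch3 fell too, and the much scarcer Notch1 was higher or not called, depending on the scaling. Notch2, the main receptor of control cells, was at 2.02, 1.93 and 2.85 FPKM in lactate libraries, against 23.3, 24.3 and 23.9 FPKM in control libraries. The groups lie far apart, and replicate 3 is the highest of the lactate libraries. The mean was 2.27 ± 0.505 FPKM in lactate and 23.8 ± 0.506 FPKM in control libraries (SD, n = 3 each), 10.5-fold lower with lactate. With TMM factors the log2 fold change was −2.69 ± 0.13 (SE; edgeR adjusted p = 2.04e-06), a 6.47-fold drop, and it was −3.54 with library totals. Notch3, a receptor best known from vascular smooth muscle, was at 0.128, 0.409 and 0.252 FPKM in lactate and 1.33, 1.35 and 1.65 FPKM in control libraries. Its groups do not overlap, and lactate replicate 2 is the highest of its group. Its log2 fold change was −1.57 ± 0.37 (edgeR adjusted p = 0.00527). Once the trend of fold change on transcript length was taken out, it stood at −0.93, which missed the threshold (edgeR adjusted p = 0.0536).

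Notch1, the most studied receptor, was at 0.626, 0.655 and 1.06 FPKM in lactate and 0.660, 0.657 and 0.557 FPKM in control libraries. On this scale the groups overlap, with lactate replicate 3 above all others. On the TMM scale it was at 8.57, 9.22 and 13.0 CPM in lactate and 4.75, 4.86 and 4.03 CPM in control libraries, which do not overlap, and it was called higher (1.18 ± 0.21, edgeR adjusted p = 0.00106). With library totals its value of 0.33 ± 0.24 missed the threshold (edgeR adjusted p = 0.239). Notch4, the remaining receptor, known from endothelium, was not among the 10. It was at 0.308 ± 0.130 FPKM in lactate and 0.321 ± 0.0358 FPKM in control libraries (SD, n = 3 each) and was not called (0.83 ± 0.35, edgeR adjusted p = 0.0667), but it was called higher when lactate replicate 3 was left out, with DESeq2, and with the length trend described below removed (1.42, edgeR adjusted p = 0.00746).

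The make-up of receptor mRNA differed between the groups, with no overlap in the share of Notch2 or Notch1. Summed over Notch1 to Notch4, receptors were at 3.62 ± 0.721 FPKM in lactate and 26.2 ± 0.556 FPKM in control libraries (SD, n = 3 each). Notch2 made up 56.0 to 67.5% of that sum in lactate and 90.6 to 91.1% in control libraries. Notch1 made up 19.0 to 24.1% in lactate and 2.11 to 2.58% in control libraries. Shares and ratios within a library do not depend on the scaling between libraries. Where genes differ in length, shares and ratios still carry the length trend. Such ratios below are those of Hes1 and Rbpj to Notch2 and of Hes1 to Jag1. On the log2 scale that trend stood at 0.04 for the length of Hes1, −0.42 for Rbpj and −0.53 for Jag1. It stood at −0.76 for Notch1 and −0.77 for Notch2. The ratio of Notch1 to Notch2 FPKM was 0.309, 0.339 and 0.373 in lactate and 0.0284, 0.0271 and 0.0233 in control libraries, so the groups are well apart. For such single values, 3 libraries against 3 cannot go below an exact two-sided permutation p of 0.10.

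**Figure D1:**
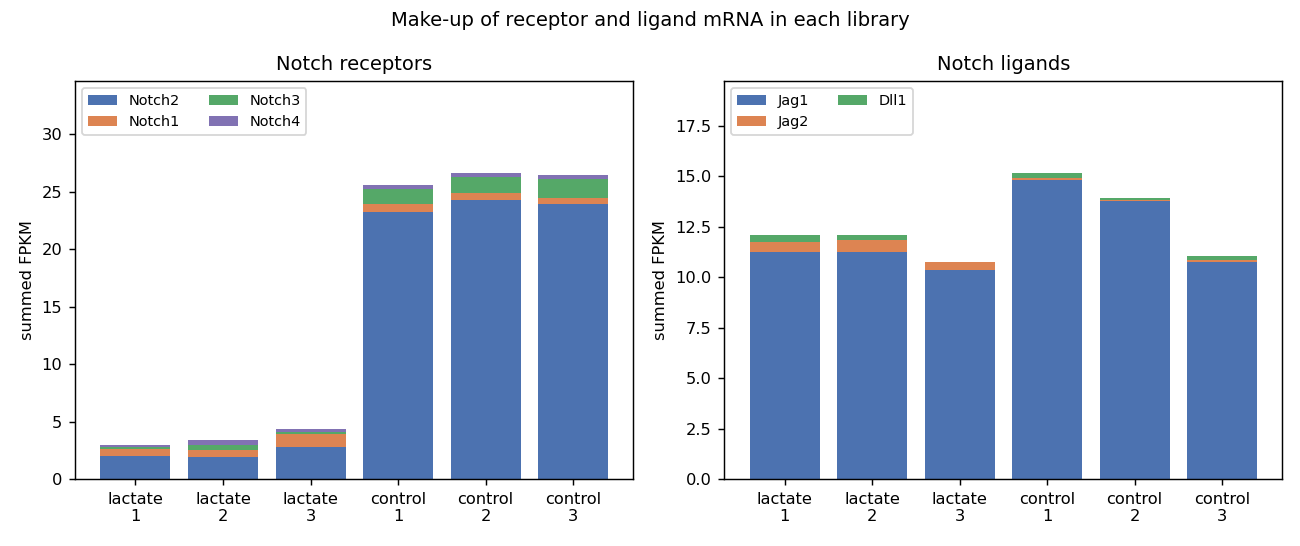
Stacked bars of deposited FPKM for the 4 receptors (left) and 3 ligands (right) in each of the 3 lactate and 3 control libraries. Receptor mRNA summed to 3.62 FPKM on average in lactate and 26.2 in control libraries, mostly through Notch2, while the ligand sums, mostly Jag1, overlap between the groups.

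Of the ligands, Jag2 rose, the call of Jag1 depended on the scaling, and Dll1 was not called. Jag1, the ligand that dominated in both groups, was at 11.2, 11.2 and 10.4 FPKM in lactate and 14.8, 13.8 and 10.8 FPKM in control libraries. The ranges overlap, and control replicate 3 lies within the lactate range. With TMM factors Jag1 was called higher (0.62 ± 0.15, edgeR adjusted p = 0.00548). With library totals its sign turned (−0.25 ± 0.14) and it was not called (edgeR adjusted p = 0.132). Its mean FPKM exceeded that of 77.0% of all 17273 genes in lactate and 70.8% in control libraries.

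Jag2, the other Jagged ligand, was scarce and rose with TMM factors and with library totals. It had 74, 84 and 62 counts in lactate and 14, 9 and 17 counts in control libraries, or 0.513, 0.588 and 0.367 FPKM in lactate and 0.0858, 0.0489 and 0.101 FPKM in control libraries. The groups are well apart. Its log2 fold change was 3.48 ± 0.41 (edgeR adjusted p = 9.89e-05), 11.2-fold higher with lactate, and 2.60 ± 0.39 with library totals (edgeR adjusted p = 0.000429). Even so, Jag2 made up only 3.41 to 4.86% of the ligand FPKM in lactate libraries and 0.351 to 0.909% in control libraries. Jag1 made up 92.8 to 96.3% in lactate and 97.4 to 98.9% in control libraries.

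Dll1, a Delta ligand, was near the limit of detection. It had 40, 33 and 4 counts in lactate and 35, 15 and 25 counts in control libraries. Lactate replicate 3 has the lowest value of all 6 libraries, and the groups overlap. It was not called (1.12 ± 0.77, edgeR adjusted p = 0.229), and without lactate replicate 3 it was called higher (1.70 ± 0.48, edgeR adjusted p = 0.0155). The Delta ligands Dll3 and Dll4 had 6 and 8 counts in lactate and 0 in control libraries, under the filter on low counts. All of these counts came from lactate replicate 3.

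Rbpj, through which all 4 receptors act on DNA, was abundant, and its call depended on the scaling. It was at 63.1, 63.8 and 58.6 FPKM in lactate and 58.5, 66.5 and 60.9 FPKM in control libraries, which overlap. Its log2 fold change was 0.01 ± 0.09 with library totals (edgeR adjusted p = 0.943). With TMM factors it was at 388, 403 and 322 CPM in lactate and 189, 220.5 and 198 CPM in control libraries, and was called higher (0.87 ± 0.11, edgeR adjusted p = 0.000182). The ratio of Rbpj to Notch2 FPKM was 28.2 ± 6.70 in lactate and 2.60 ± 0.123 in control libraries (SD, n = 3 each).

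Of the targets, Hes1 rose with TMM factors and with library totals, and Hey1 and Heyl were barely detected. Hes1, a repressor that keeps progenitor cells from differentiating, was at 77.5, 86.0 and 44.1 FPKM in lactate and 23.9, 22.9 and 26.4 FPKM in control libraries. The groups do not overlap, and lactate replicate 3 lies between the other lactate libraries and the controls. The log2 fold change was 2.40 ± 0.27 (edgeR adjusted p = 7.70e-05), 5.28-fold higher with lactate, and 1.51 ± 0.23 with library totals (edgeR adjusted p = 0.000476). Its mean FPKM exceeded that of 94.4% of all genes in lactate and 82.2% in control libraries. The ratio of Hes1 to Notch2 FPKM was 38.3, 44.5 and 15.5 in lactate and 1.03, 0.943 and 1.10 in control libraries. The ratio of Hes1 to Jag1 FPKM was 6.90, 7.64 and 4.25 in lactate and 1.61, 1.66 and 2.46 in control libraries, and groups do not overlap in either ratio.

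Hey1, a related repressor known from vessels and bone, had 22, 7 and 5 counts in lactate and 11, 17 and 12 counts in control libraries. The lactate values lie on both sides of the control values, and Hey1 was not called (0.83 ± 0.67, edgeR adjusted p = 0.304). Heyl, the third of these targets, had 0 counts in every lactate library and 0, 0 and 4 counts in control libraries, and was not tested. A count of 0 allows up to 3 counts, or 0.105 to 0.141 CPM in a lactate library, for counting error only, so no difference was detectable at this depth. Hes1 made up 99.1 to 99.7% of the FPKM of the 3 targets in lactate and 98.1 to 98.6% in control libraries.

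**Figure D2:**
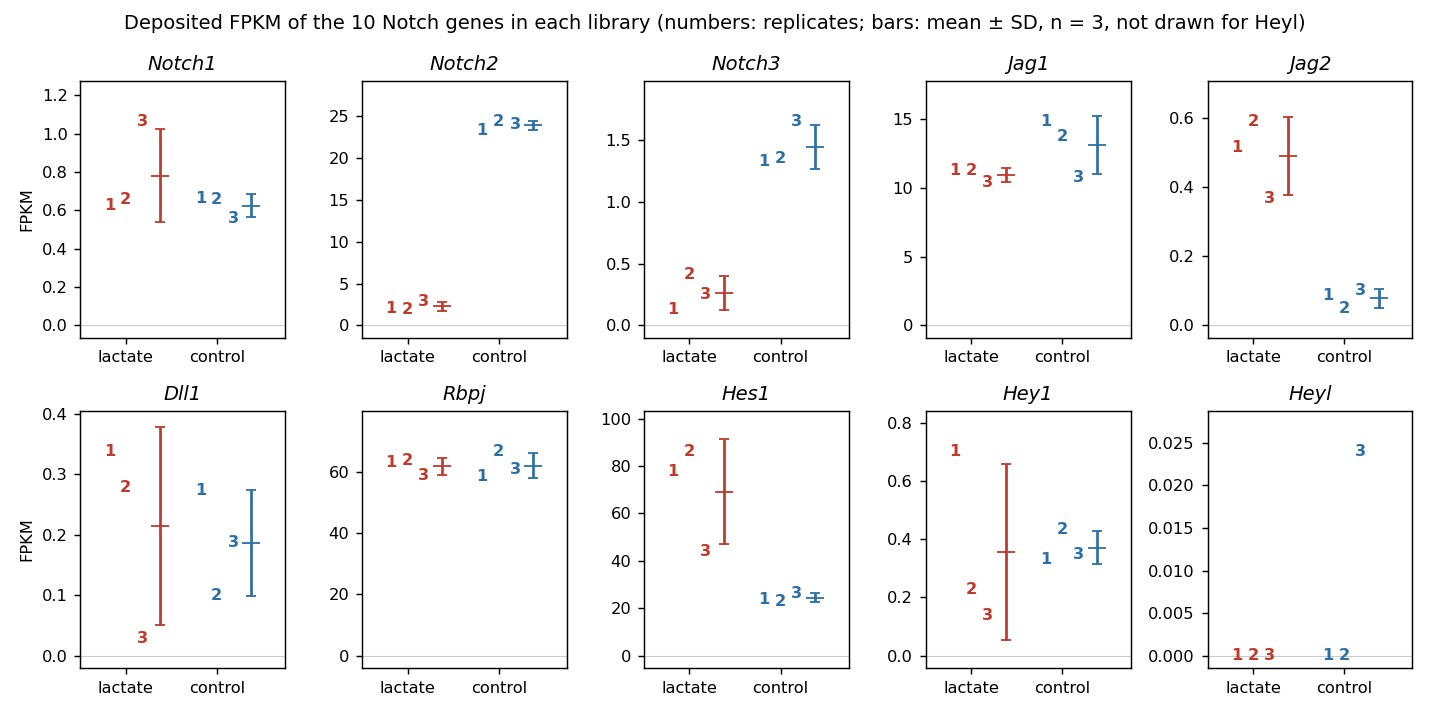
Deposited FPKM of each of the 10 genes, lactate libraries left and control libraries right, with the replicate number as the symbol and the mean and SD of 3 libraries beside it. Notch2 and Notch3 are lower and Jag2 and Hes1 higher in all 3 lactate libraries, the other genes overlap on this scale, and Heyl is above 0 only in control replicate 3.

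By level, the order in lactate libraries was Hes1 (69.2 ± 22.1 FPKM), Rbpj (61.8 ± 2.79), Jag1 (10.9 ± 0.505), Notch2, Notch1 (0.781 ± 0.244), Jag2 (0.489 ± 0.112), Hey1 (0.355 ± 0.301), Notch3 (0.263 ± 0.141), Dll1 (0.215 ± 0.164) and Heyl (SD, n = 3 each). Neighbours whose ranges overlap in lactate libraries are Hes1 with Rbpj, Jag2 with Hey1, Hey1 with Notch3, and Notch3 with Dll1. In control libraries the order was Rbpj (61.9 ± 4.10 FPKM), Hes1 (24.4 ± 1.84), Notch2, Jag1 (13.1 ± 2.09), Notch3 (1.44 ± 0.176), Notch1 (0.625 ± 0.0585), Hey1 (0.370 ± 0.0562), Dll1 (0.187 ± 0.0871), Jag2 (0.0784 ± 0.0266) and Heyl. There Hes1 overlaps with Notch2, and Dll1 with Jag2. Notch2 mRNA exceeded that of Jag1 in every control library and was under it in every lactate library.

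Of the 10 genes, 9 passed the filter and 7 of them were called, 5 higher (Notch1, Jag1, Jag2, Rbpj and Hes1) and 2 lower (Notch2 and Notch3). That share is near the 66.0% of all genes, so the count says nothing particular about the pathway. Their median log2 fold change was 0.87, beside −0.10 over all tested genes. The groups did not overlap in CPM for those 7 genes, where 72.2% of all tested genes do not overlap, 33.7% higher and 38.4% lower. In FPKM they did not overlap for Jag2 and Hes1, higher, and Notch2 and Notch3, lower, where 78.6% of all tested genes do not overlap, 14.0% higher and 64.6% lower. With library totals Jag2 and Hes1 were called higher and Notch2 and Notch3 lower, and the median was 0.01, beside −0.96 over all genes, of which 74.3% were called. In the authors' deposited table the log2 fold changes were −2.73 for Notch2, −1.61 for Notch3, 1.14 for Notch1, 3.44 for Jag2 and 2.36 for Hes1. At an FDR under 0.05 in the authors' deposited table, 5 of the 10 genes are higher and 2 lower, beside 51.6% of all genes, 23.6% higher and 28.0% lower. The 5 genes just named are in the authors' deposited table of selected genes, which holds 36.8% of all genes.

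**Figure D3:**
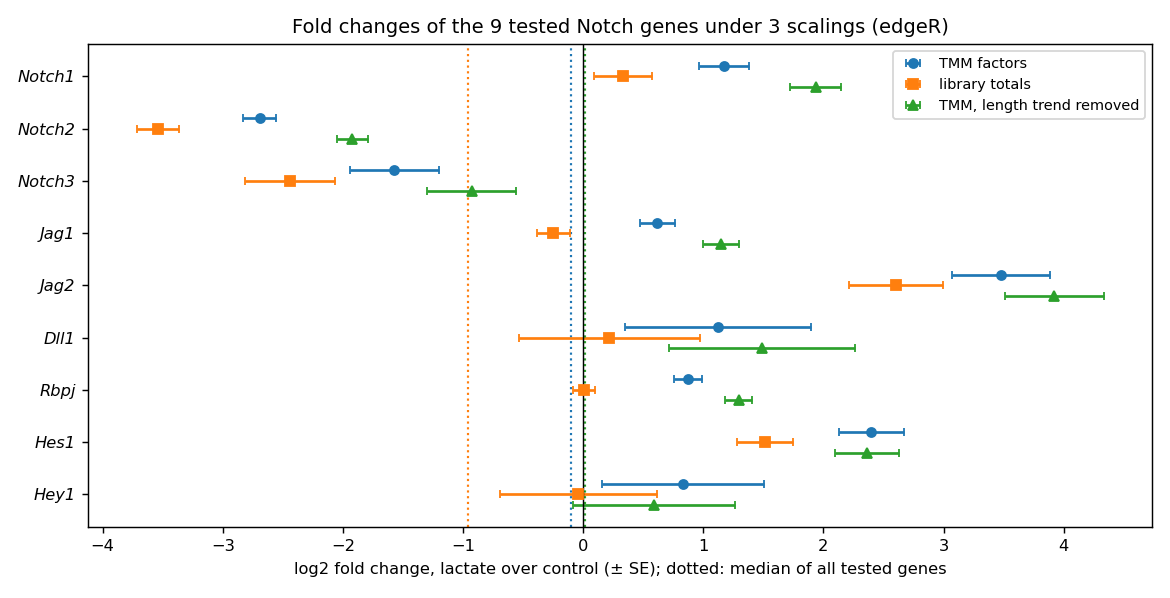
Log2 fold changes (lactate over control, ± SE) of the 9 tested genes under TMM factors, library totals and removal of the length trend, and the median of all tested genes under each as a dotted line. Notch2 stays left of 0 and Jag2 and Hes1 right of it in all 3, while Jag1 and Hey1 cross 0 with library totals and Rbpj lies at 0.01 there.

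Fold changes fell with transcript length over all genes, and the receptors are among the longest transcripts. In the longest of 10 bins of genes, which holds Notch1, Notch2, Notch3 and Jag1, the median log2 fold change was −0.60, and the values from the 10th to the 90th percentile ran from −2.13 to 1.05. Notch2, at −2.69, lies below that band and Notch1, at 1.18, above it, and these receptors are of near-equal length (4.68 and 4.55 times the median gene). With the trend removed Notch2 was at −1.92 ± 0.13 (edgeR adjusted p = 5.71e-06), Notch1 at 1.94 ± 0.21 and Hes1, a short transcript, at 2.36 ± 0.27. In that fit 5 of the 9 tested genes were called higher and 1 lower, beside 63.4% of all genes called, 33.6% higher and 29.9% lower.

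**Figure D4:**
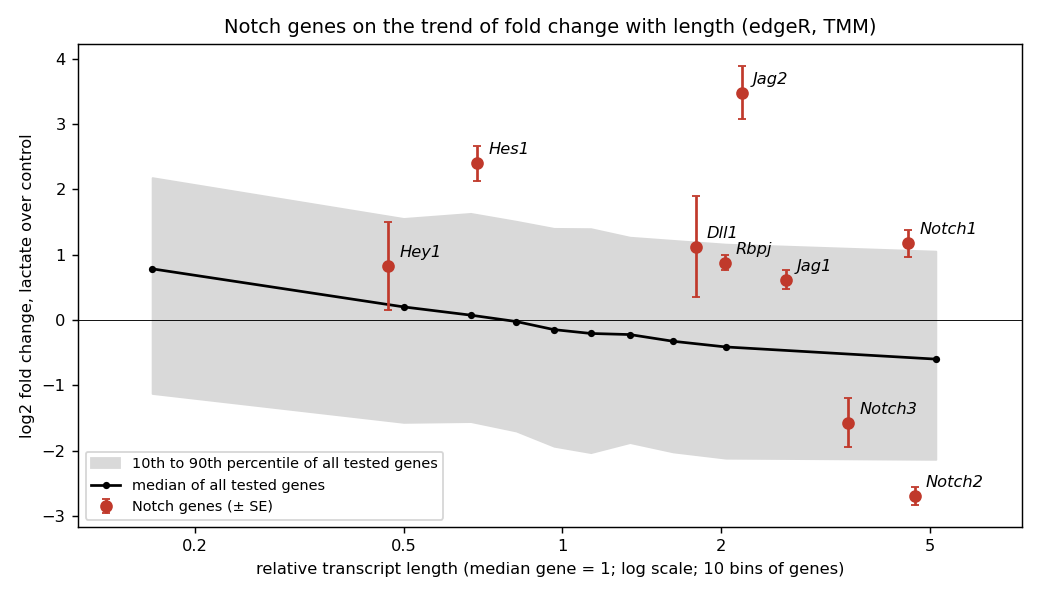
Log2 fold change (lactate over control, TMM factors) against relative transcript length on a log scale, with the median and the 10th to 90th percentile of 10 bins of tested genes, and the 9 tested Notch genes with their SE. Notch2 lies below and Notch1, Jag2 and Hes1 lie above the band of genes of like length.

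Other genes of the pathway were read from lists by role. Of 86 genes, 74 were tested, of which 26 were called higher and 26 lower, and the median log2 fold change was −0.01. With library totals 9 were higher and 45 lower, with a median of −0.88. Over all tested genes 31.4% were higher and 34.6% lower, with a median of −0.10. Changes of single genes are given on the log2 scale.

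In the list of proteases that cut the receptor and their subunits, every tested gene was called, 4 of 9 higher and 5 lower. This is 1 of 9 lists, and 66.0% of all tested genes were called. With library totals 2 of the 9 genes were higher and 5 lower, and after removal of the length trend 3 and 5. Adam10, the protease that makes the first ligand-dependent cut, was at 19.5 ± 3.04 CPM in lactate and 72.1 ± 0.853 CPM in control libraries (SD, n = 3 each; −1.88 ± 0.13, edgeR adjusted p = 6.09e-06), and −2.73 with library totals. Psenen and Ncstn, which encode the subunits PEN-2 and nicastrin of gamma-secretase, the enzyme of the next cut, rose by 1.56 ± 0.11 (edgeR adjusted p = 5.91e-06) and 1.21 ± 0.10 (edgeR adjusted p = 1.28e-05), and both were called higher with library totals too (0.70 and 0.34). After removal of the length trend Psenen, a short transcript, was at 0.74 and still called. The genes of this list that follow were named after their values were seen. Aph1a (0.70 ± 0.12) and Aph1b (0.94 ± 0.26), further subunits, were higher, but were at −0.16 and 0.07 and not called with library totals, and Aph1b also missed the threshold after removal of the length trend (0.62, edgeR adjusted p = 0.0636). Adam17 (−1.02 ± 0.13), a related sheddase, and Furin (−1.19 ± 0.10), which processes receptors on their way to the surface, were lower, also with library totals (−1.87 and −2.05).

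Enzymes that put sugars on the receptor had 1 of 7 higher, 2 lower and 4 not called (0 and 6 with library totals). Pofut1, which adds O-fucose, was at 80.6 ± 12.7 CPM in lactate and 49.2 ± 1.52 CPM in control libraries (0.71 ± 0.13, edgeR adjusted p = 0.00136), but at −0.16 and not called with library totals. Eogt, which adds O-GlcNAc, fell by 1.78 ± 0.14 and Poglut1, which adds O-glucose, by 0.59 ± 0.13. With library totals Eogt was at −2.63 and Poglut1 at −1.45. After removal of the length trend Poglut1, at −0.27, was not called.

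Among ubiquitin ligases and endocytic regulators, 5 of 16 were higher, 8 lower and 3 not called (2 and 12 with library totals). The epsins, which help to take up ligands in the sending cell, were higher: Epn2 was at 251 ± 20.2 CPM in lactate and 57.0 ± 1.12 CPM in control libraries (2.14 ± 0.10, edgeR adjusted p = 1.81e-06), and Epn1 rose by 1.07 ± 0.10. Dtx3, of the Deltex ligase family, rose by 1.15 ± 0.11. With library totals Epn2 was at 1.27 and Dtx3 at 0.29, while Epn1, at 0.21, was not called. Of the lower genes, the ligase Mib1, named after its value was seen, fell by 1.18 ± 0.17 (edgeR adjusted p = 0.000344). Mib1 was at −2.03 with library totals and at −0.81 after removal of the length trend, called lower in both. The 8 lower calls of this list became 5 without lactate replicate 1, control replicate 2 or control replicate 3.

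In the nucleus, coactivators had 2 of 6 higher, 2 lower and 2 not called (0 and 4 with library totals). Maml2, a Mastermind protein that bridges the receptor fragment to coactivators, was at 1.61 ± 0.621 CPM in lactate and 12.7 ± 2.03 CPM in control libraries (−2.97 ± 0.30, edgeR adjusted p = 4.01e-05), and −3.80 with library totals. The more abundant Maml1, named after its value was seen, was at 23.6 CPM in lactate and 30.5 CPM in control libraries. Maml1 was not called (−0.37 ± 0.17, edgeR adjusted p = 0.0842), and was at 0.15 after removal of the length trend. With library totals Maml1 was called lower (−1.21, edgeR adjusted p = 0.000961). The histone acetyltransferases Crebbp and Ep300 rose by 1.15 ± 0.18 and 0.87 ± 0.18 with TMM factors, but were at 0.30 and 0.0085 and not called with library totals. Crebbp was at 1.93 after removal of the length trend. Corepressors had 5 of 16 higher, 5 lower and 6 not called (1 and 10 with library totals). Tle3, a Groucho protein with which Hes factors repress genes, was at 197 ± 29.9 CPM in lactate and 42.8 ± 1.67 CPM in control libraries (2.20 ± 0.13, edgeR adjusted p = 3.23e-06), and 1.33 with library totals. Tle5, a short relative, rose by 1.04 ± 0.09, but missed the threshold with library totals (0.18), and was at 0.29 and still called after removal of the length trend (edgeR adjusted p = 0.0181). L3mbtl3, which binds RBPJ at repressed targets, fell by 2.93 ± 0.27 and was at −3.77 with library totals.

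Other Hes and Hey factors had 2 of 4 tested genes higher and 2 not called (1 higher and 1 lower with library totals). Hes6, which in mouse opposes Hes1, was at 19.95 ± 3.08 CPM in lactate and 7.44 ± 1.10 CPM in control libraries (1.42 ± 0.18, edgeR adjusted p = 0.000136), and 0.57 with library totals. Hes7, a clock gene of the embryonic somites, was called higher (1.35 ± 0.45, edgeR adjusted p = 0.0277) on 58 counts in lactate and 45 counts in control libraries. Its call was lost when any library but lactate replicate 2 was left out, with library totals (0.51, edgeR adjusted p = 0.341), with the length trend removed (0.90, edgeR adjusted p = 0.111) and with the replicate number as a block (edgeR adjusted p = 0.0915).

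Non-canonical ligands and extracellular modulators had 3 of 6 higher, 2 lower and 1 not called (1 and 3 with library totals). Egfl7, a secreted protein of endothelium that binds Notch receptors, rose by 1.83 ± 0.17 (edgeR adjusted p = 2.44e-05) and Mfap5, a microfibril protein that can bind Jagged and Notch1, by 1.16 ± 0.14. Ccn3, a matricellular protein, fell by 1.17 ± 0.17. With library totals Egfl7 was at 0.96 and Ccn3 at −2.04, while Mfap5, at 0.30, missed the threshold. Genes reported as Notch targets in other cell types had 4 of 9 higher, 2 lower and 3 not called (2 and 4 with library totals). Cdkn1a, the cyclin-dependent kinase inhibitor p21, rose by 4.25 ± 0.22 and the cyclin Ccnd1 by 1.42 ± 0.11, while Efnb2, an ephrin, fell by 2.43 ± 0.19. With library totals they were at 3.41, 0.56 and −3.28, each still called. These genes have many other regulators. Nrarp, a feedback inhibitor and a more direct Notch target, named after its value was seen, was not called (0.79 ± 0.32, edgeR adjusted p = 0.0545), was at −0.07 with library totals, and was called higher with the length trend removed (1.01, edgeR adjusted p = 0.0222). The higher calls of this list numbered 5 in that fit and with RLE factors, DESeq2 and limma-voom.

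**Figure D5:**
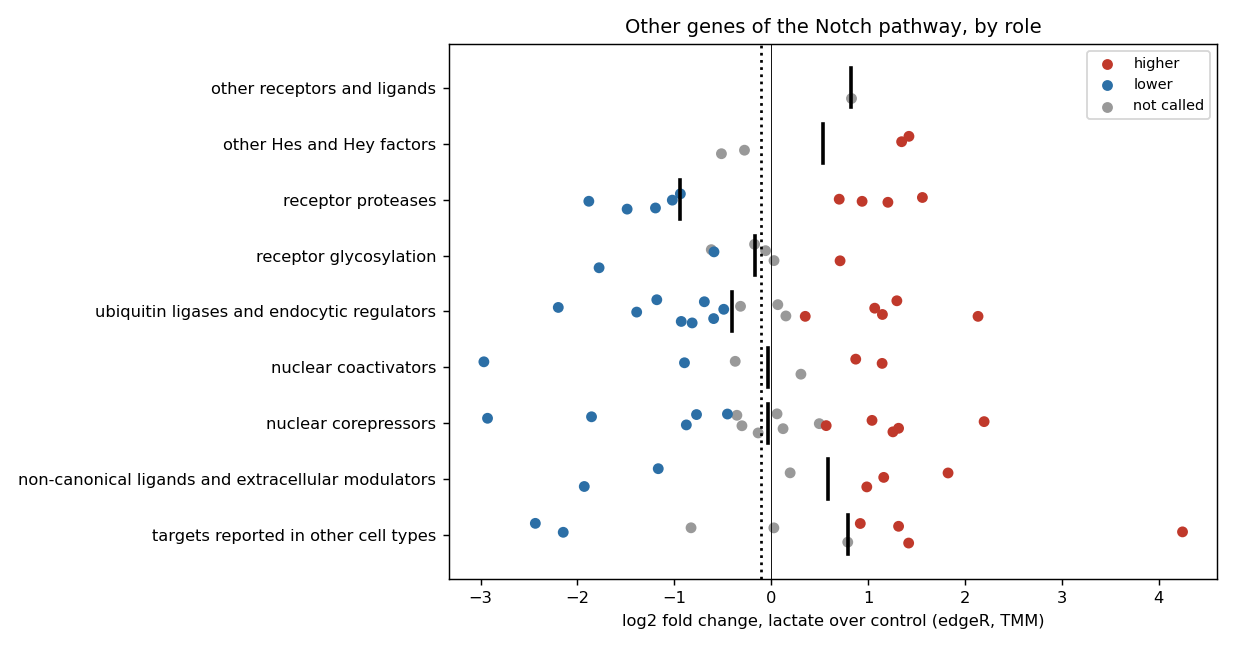
Log2 fold change (lactate over control, TMM factors) of each tested gene in 9 lists of other pathway genes, coloured by call, with a bar at each list's median and a dotted line at the median of all tested genes, −0.10. In most lists genes called higher and lower stand side by side. Every tested gene of the protease list was called, where 66.0% of all tested genes were.

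Across the 6 libraries, the genes whose log2 CPM was most like that of Hes1, among 7157 named genes with a mean of at least 10 CPM, were Sik1 (Pearson r = 0.999), Lif (r = 0.999) and Man2c1 (r = 0.998). The libraries form a group of 3 and a group of 3, so such values describe mainly the difference between groups. Sik1, a salt-inducible kinase, was at 118, 139 and 59.8 CPM in lactate and 13.5, 13.9 and 15.6 CPM in control libraries. Lif, a cytokine, was at 42.5, 46.0 and 18.0 CPM in lactate and 4.00, 3.29 and 4.11 CPM in control libraries. Like Hes1, at 161, 183 and 81.7 CPM in lactate and 26.0, 25.6 and 29.0 CPM in control libraries, both are lowest of the lactate group in replicate 3. Pearson r does not weigh the size of a change. Man2c1 was at 37.1, 37.4 and 33.4 CPM in lactate and 28.2, 28.8 and 28.8 CPM in control libraries. Its log2 fold change was only 0.33 ± 0.10, beside 2.40 for Hes1.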

How the data were processed

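Counts and FPKM per gene of 6 libraries were deposited by the authors, per the file headers, with their own log2 fold changes and p-values. No aligner, counter, annotation, strand setting or tool for that comparison is named in the labels or headers. Per the submitters' processing notes the builds were GRCm38 and mm10, both of mouse, while the cells are from rat. The genome used was therefore not settled, overlapping genes are uncertain, and promoter sequences come from RefSeq, GRCr8.

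Deposited counts were tested with edgeR 4.0.16 in R 4.3.3 (quasi-likelihood test, TMM factors, filterByExpr, group as the only term), with Benjamini-Hochberg adjustment over 13747 genes, and the scripts were tested on simulated data. CPM use TMM factors. Relative length came from counts over FPKM, and its trend was removed with loess (span 0.3). Alternatives used RLE, upper-quartile factors or library totals, other filters, DESeq2 1.42.0, limma 3.58.1 (voom, and trend on log2 FPKM), a replicate block, and each library left out in turn.

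The 10 genes and the lists were chosen with earlier results of these data known. Named pathway genes were up to 3 called genes per list with the smallest p, and every gene of a list of 3, unless stated. For likeness, 0.5 was added to CPM. List genes with no row in the table were not analysed here. Some genes of the lists are counted but not reported singly here. Intervals and floors cover counting error only.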

Additional observations from a re-analysis of the deposited data

How the results depend on the processing

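Notch2, Jag2 and Hes1 kept their direction and call in all 17 alternatives, with log2 fold changes of −3.54 to −1.92, 0.46 to 3.92 and 1.41 to 2.71, and Notch3 in 16. With library totals, limma-trend on log2(FPKM + 1) and on log2(FPKM + 0.1), the genes called higher numbered 1722, 1781 and 1770 (4319 in the main test) and those lower 8492, 8759 and 8737 (4760). Of the 10 Notch genes 2 were higher in each of these, against 5, and of the other pathway genes 9, 10 and 10 were higher (26) and 45 lower in each (26). In the same order Jag1 was at −0.25, −0.23 and −0.25, Rbpj at 0.0076, −0.0014 and −0.0014, and Hey1 at −0.041, −0.037 and −0.24. Notch1 lost its call in all 3. Dll1 was at −0.0015 on log2(FPKM + 0.1). With the length trend removed 1 Notch gene was lower, against 2. Left-out libraries gave 8026 to 9407 called genes, 5 to 6 Notch genes higher and 2 lower, and Hey1 at −0.14 (without lactate replicate 1) to 1.29 (without lactate replicate 3). The causes were not tested.

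Same-numbered libraries did not deviate together (correlations 0.015, 0.047 and 0.094), and lactate replicate 1 correlated better with control replicate 3 (0.037). With the replicate number as a block 8814 genes were called, against 9079, and of the Notch genes 5 were higher and 2 lower. Hey1, Heyl and Dll1 had too few counts for a firm statement.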
